A study of Mus musculus with 20 samples.

Results

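The cytosolic ribosomal protein genes, whose products assemble with ribosomal RNA into the small and large ribosomal subunits, were followed in 20 mouse breast tumors. Members were the gene rows named Rpl or Rps with a number (with an a, x or l and a further digit allowed), together with Rplp0, Rplp1, Rplp2 and Rpsa, without names that hold -ps, and with a mean of at least 5 CPM (counts scaled to a common library total) over the tumors. Of 43346 genes in the table, 88 rows had such a name and 81 passed the CPM limit, of which 33 belong to the small and 48 to the large subunit. The 3 members closest to the limit were Rpl29 at 29.1, Rps3a2 at 58.6 and Rps2 at 69.2 CPM, and the 3 closest rows below it were Rps3a3 at 2.62, Rps4l at 1.10 and Rpl3l at 0.514 CPM. The limit therefore fell in a wide gap. The paralogs Rpl22l1, Rps27l and Rpl7l1 passed the rule, and so did Rps3a2, a close copy of Rps3a1, between which the counting could split reads.

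Each tumor came from a different female F1 mouse, [FVB/J x BALB/c-(neuT)], bred from neuT-positive BALB/c males and wild-type FVB/J females. All mice carry the neuT transgene, an activated rat Her2/neu oncogene, and formed several tumors spontaneously, generally at 14 to 20 weeks of age, of which 1 per mouse was taken. No normal gland and no transgene-negative mouse was part of the samples analysed here. Sample names carry Lo (9 tumors) or Hi (11 tumors), and the sources used here do not give the meaning of these words. The tumors were processed and sequenced together, and the study used them to ask whether the expression of parental alleles shifts by chance between tumors.

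Total counts ranged from 38765682 to 65465755 per tumor. The 8 epithelial markers were detected in every tumor and summed to between 2857 and 4429 CPM, beside 320.2 to 724 CPM for the 8 leukocyte markers, 652 to 2398 CPM for the 8 fibroblast markers and 51.0 to 126 CPM for the 6 endothelial markers. Of the 6 adipocyte markers, 3 were detected in every tumor, and the list summed to between 5.73 and 54.4 CPM. A pair of overlapping rows over a ribosomal RNA gene took 6.29% to 27.7% of the counts of a tumor. CPM values below were scaled with TMM factors, which set the libraries to a common scale. Since these are bulk samples, fewer cells of a type and less RNA per cell cannot be told apart.

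Ribosomal proteins are needed in fixed proportions, 1 copy of most per ribosome and more than 1 of the P stalk proteins Rplp1 and Rplp2. Their mRNAs are short and abundant, and they typically begin with a 5' terminal oligopyrimidine (TOP) tract, a cytidine followed by a run of pyrimidines, through which mTORC1 signaling controls their translation together. Free Rpl5 and Rpl11, bound to 5S ribosomal RNA, can inhibit Mdm2 and thereby stabilize p53.

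Promoter entries from RefSeq (GRCm38.p6, the same assembly as mm10) were found by symbol for 60 of the 81 members, with 71 entries in all. A C followed by at least 4 bases that are each C or T began exactly at the listed start in 18.3% of member entries and in 2.51% of all 32851 entries, and within 10 bases of the start in 53.5% and 30.7%. The letters CCGGAA, on either strand within the 300 bases from 250 before to 50 after the start, were in 49.3% of member entries and in 14.9% of all entries. AAGATGGC was found on either strand in 11.3% and 2.75%. These are descriptions of letters, and the listed starts of genes can differ from those used in the tumors. The windows of 30 bases below run from 10 bases before the start and are shown for members described further on. They are Rps6 (chr4:86857348-86857377, minus strand), Rps27 (chr3:90213629-90213658, minus strand), Rps21 (chr2:180257369-180257398, plus strand), Rpl22l1 (chr3:28805498-28805527, plus strand), Rpl11 (chr4:136053374-136053403, minus strand) and Rpl22 (chr4:152325716-152325745, plus strand). Capitals mark the longest run of this kind that opens within 10 bases of the start, or CCGGAA where there is no such run, and Rpl22 has neither in the window shown. A second RefSeq start of Rpl22 (window chr4:152324426-152324455) does hold such a run, CTTCT, 10 bases before the start, and Rps21 has a second entry without one.
Rps6: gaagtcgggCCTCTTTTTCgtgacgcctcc
Rps27: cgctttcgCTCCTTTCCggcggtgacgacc
Rps21: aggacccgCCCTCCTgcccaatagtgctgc
Rpl22l1: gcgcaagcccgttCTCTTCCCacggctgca
Rpl11: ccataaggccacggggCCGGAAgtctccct
Rpl22: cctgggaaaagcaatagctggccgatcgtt

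The mRNAs of this stoichiometric complex were present at very different levels per length. Mean RPKM (CPM per kilobase of the gene length listed in the table) ranged from 20.1 for Rpl35a to 1871 for Rplp1, with a median of 180.3 over the 81 members and of 8.15 over the 11976 genes with a mean of at least 5 CPM. The acidic P stalk protein Rplp1, which helps to recruit translation factors, was at 1456 in the lowest tumor, 1849 in the median and 2364 in the highest, and the other stalk genes were lower, Rplp0 at 517 ± 59.7 RPKM and Rplp2 at 131 ± 19.4 RPKM (SD, n = 20). Below Rplp1 followed Rpl32 (1211 ± 183), Rpl4 (815 ± 90.7), a protein that lines the peptide exit tunnel, Rps15 (778 ± 122) and Rps12 (715 ± 102). The lowest members were Rpl35a (20.1 ± 3.96), Rpl7l1 (31.7 ± 2.38), Rpl29 (36.5 ± 8.06), Rps2 (37.9 ± 6.73) and Rpl30 (39.7 ± 9.87). Neighbors in this order, such as Rpl4 and Rps15 or Rps2 and Rpl30, were closer than their SD. Small subunit members had a median of 284 RPKM and large subunit members of 148 RPKM, with wide overlap.

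**Figure D1:**
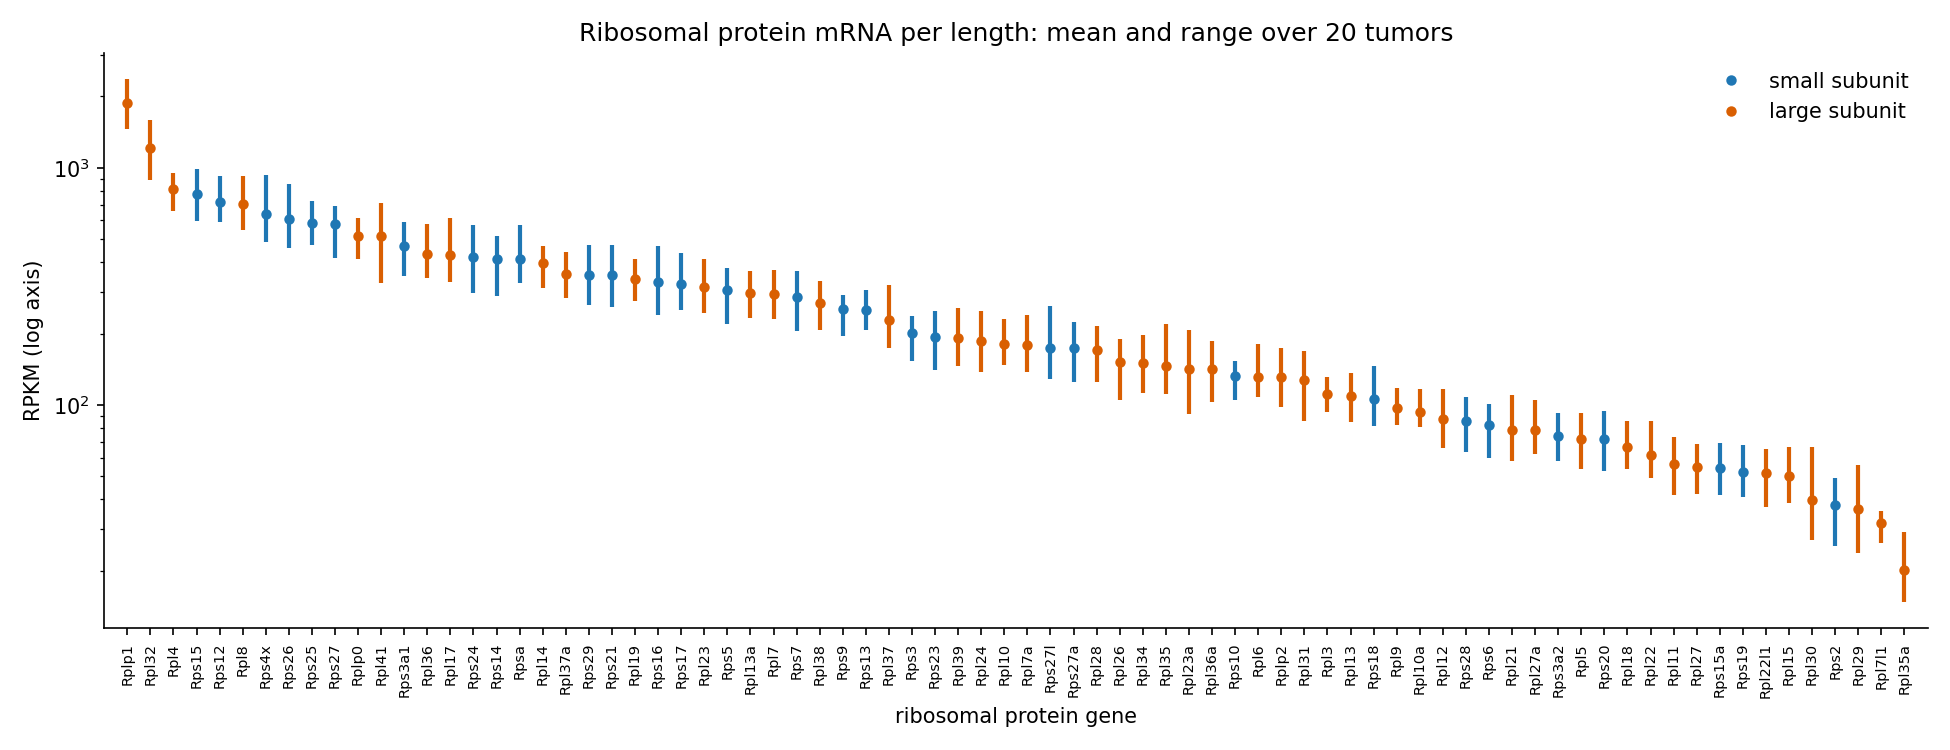
Mean RPKM (points, log axis) of each of 78 members, with bars from the lowest to the highest of the 20 tumors, small subunit in blue and large subunit in orange. Members span from 20.1 RPKM for Rpl35a to 1871 RPKM for Rplp1, while each gene varied far less between tumors.

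Some of this order rests on the listed lengths and on where reads were counted. The listed length of members runs from 255 bases for Rps27 to 6262 bases for Rps15a, and how it was made is not given in the sources used here. Rows of pseudogenes with -ps in their name (229 rows for 57 members) held 3.23% of all counts on members and these rows together. For Rps2, the low level stood beside 72.4 CPM on Rps2-ps10, so that 51.7% of the counts on Rps2 and its pseudogene rows lay outside the gene itself. This share was 23.8% for Rpl10a, 22.8% for Rps6 and 21.1% for Rps10. The part of shared reads in these levels was not tested.

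Ribosomal proteins that the name rule leaves out were at comparable levels. Fau, which encodes the small subunit protein eS30 as a fusion, was at 230 ± 33.3 RPKM (SD, n = 20). Gnb2l1, an older symbol of the small subunit protein Rack1, was at 179 ± 21.6 RPKM and Rpl36al at 76.6 ± 11.02 RPKM.

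Together the 81 members took 2.09% of all counts in tumor 7 (Hi), 2.67% in the median tumor and 3.38% in tumor 18 (Hi). Wilson intervals at 95% were narrow, 2.09% to 2.10% in tumor 7, and cover counting error only. The share was 2.66% ± 0.288 (SD, n = 9) in Lo and 2.77% ± 0.403 (SD, n = 11) in Hi. With the ribosomal RNA rows left out of the total, it ran from 2.63% in tumor 7 to 3.81% in tumor 1 (Lo), with a median of 3.21%. The order of tumors thus depended in part on these rows, but tumor 7 was lowest on both scales.

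The members varied together. The median over members of log2 CPM was lowest in tumor 12 (Hi, 7.72) and highest in tumor 1 (8.35), with a median tumor at 8.09 and an SD of 0.18, and the Lo range (7.86 to 8.35) overlapped the Hi range (7.72 to 8.33). The extremes of single genes fell in few tumors. Of the 81 members, 32 were lowest in tumor 12 and 30 in tumor 7, while 21 were highest in tumor 1, 18 in tumor 18, 16 in tumor 8 and 11 in tumor 22. The highest tumor exceeded the lowest by 1.36-fold to 2.47-fold for single members, with a median of 1.72-fold. Single members had a median SD of 0.21 in log2 CPM over the tumors, which fell to 0.11 once the member median of each tumor was subtracted. The SD of all genes at 5 CPM or more had a median of 0.19.

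Over the 20 tumors, log2 CPM of a pair of members had a median Pearson's r of 0.742, and 99.9% of pairs were positive. The same median over all 11976 genes was 0.0104. This background depended on the scaling. For log2(RPKM + 1) without TMM factors, the median was 0.755 over pairs of members and 0.240 over all genes. With TMM, the members' median r was 0.674 within Lo and 0.812 within Hi, and 0.744 between a small and a large subunit gene. These pairs share libraries and their depth, so the values are descriptions. Removal of each tumor's trend of expression on gene length lowered the members' median to 0.615, with -0.000391 over all genes. The members closest to the group were Rpl24, Rpl34, Rps13, Rps23 and Rps15, whose SD about the member median was 0.06 to 0.07. Rpl24, a large subunit protein, had an r of 0.979 with the median of the other members. Mean log2 CPM of small subunit members minus that of large subunit members was 0.19 ± 0.03 (SD, n = 20), from 0.14 in tumor 7 to 0.24 in tumor 19, so that the balance between the subunits varied less than the level they shared.

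The genes that departed most from the group were Rpl30 (SD of 0.23 about the member median), Rps20 (0.22), Rpl23a (0.21), Rpl22 (0.21) and Rps2 (0.21). By the correlation with the median of the other members, Rps20 (r = 0.445), Rpl22 (0.463), Rps2 (0.606) and Rps27l (0.653) were among the weakest, beside a median of 0.854 over all members. Rps20 and Rpl22 lie on Chr4.

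No member passed the test between the Lo and Hi tumors. By edgeR's quasi-likelihood test with Benjamini-Hochberg adjustment, 0 of 81 members and 0 of 18883 genes passed an adjusted p of 0.05, a background of 0.0% in each direction. At an unadjusted p under 0.05 there were 1045 genes and 0 members, and DESeq2 called 1 gene and 0 members. The log2 difference of Lo minus Hi had a median of 0.02 over members, from -0.12 (Rps20) to 0.15 (Rpl15), and of 0.000990 over all genes tested. Rpl15 was at 102 to 159.8 CPM in Lo (median 125) and 92.3 to 144.5 CPM in Hi (median 109.85), with a log2 difference of 0.15 (standard error 0.09, adjusted p = 0.992 from edgeR). The groups overlapped.

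Members on different chromosomes allowed a comparison with chromosome content. The study describes recurrent changes of Chr4 and sporadic changes of other chromosomes in this model. The dosage of a chromosome was taken as the median, over its genes that are not members, of log2 CPM relative to the 20-tumor median, minus the same over all autosomal genes. A slope of 1 then means that a gene moved in proportion to the other genes of its chromosome. Chr4 had the widest dosage, from -0.21 in tumor 1 to 0.38 in tumor 19 (SD 0.14), followed by Chr1 (SD 0.10), Chr2 (0.09) and Chr15 (0.08).

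Of 81 members, 4 rose with the dosage of their own chromosome (edgeR's quasi-likelihood test, all genes adjusted together) and 0 fell, beside a background of 11.1% of 18878 genes that rose and 0.62% that fell. The members' share was thus below that of all genes. The 4 were Rpl22 and Rps20 on Chr4, Rps21 on Chr2 and Rpl8 on Chr15. The median slope was 0.82 over members and 1.04 over all genes.

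All 5 members on Chr4 had positive slopes, between 0.58 and 1.04, and 2 of them were called, where 39.2% of all Chr4 genes were. Rpl22, a large subunit protein that is dispensable for general translation and needed in T cell development, was at 143 CPM in the lowest tumor (12), 180.1 CPM in the median and 249.7 CPM in tumor 19. Its slope was 1.04 (standard error 0.269, adjusted p = 0.0141 from edgeR). The small subunit gene Rps20 ran from 215 CPM in tumor 2 over a median of 290.2 to 386 CPM in tumor 19, with a slope of 1.02 (standard error 0.312, adjusted p = 0.0368 from edgeR). Both were thus highest in the tumor with the highest Chr4 dosage.

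Rps6 and Rpl11 on Chr4 did not pass the test. Rps6, whose phosphorylation by S6 kinase is a common readout of mTORC1, was at 95.3 to 160.3 CPM (median 135) with a slope of 0.72 (adjusted p = 0.157). Rpl11 was at 113 to 197 CPM (median 154) with a slope of 0.58 (adjusted p = 0.245). Rpl11 was highest in tumor 19, and Rps6 was second highest there after tumor 8. Relative to the member median of each tumor, the 4 members named here were highest in tumor 19, by 0.34 (Rps6) to 0.52 (Rpl22) on the log2 scale above their own 20-tumor median, and Rps20 and Rpl22 were lowest in tumor 1.

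**Figure D2:**
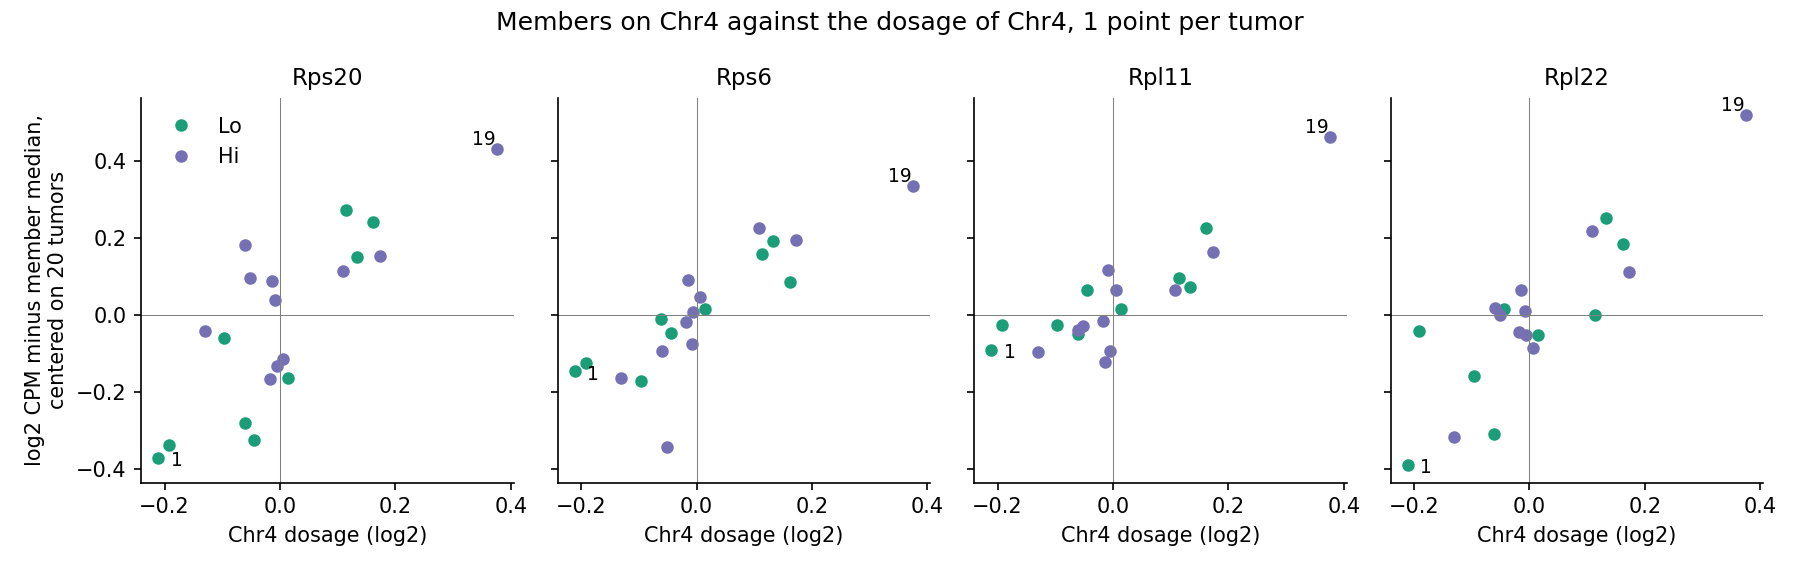
Each panel plots 1 of 4 members on Chr4 in 20 tumors, with Chr4 dosage (log2) on the x axis and log2 CPM minus the member median, centered on the 20 tumors, on the y axis. In every panel tumor 19 lies at the upper right (dosage 0.38), and tumor 1 has the lowest dosage (-0.21).

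Tumor 19 decided part of these calls. With limma on log2 CPM, 4 members and 11.2% of all genes rose. In limma without tumor 19, 1 member (Rps21) and 9.44% of all genes did, and the slope of Rpl22 was then 0.86. Rps20 was also not called in edgeR with Lo or Hi as a term, or in limma without tumor 2, 3, 4, 5, 13 or 14. Without the 2 tumors farthest in dosage on each chromosome 0 members and 2.35% of all genes rose. Within Lo 1 member (Rps21) and 1.89% of all genes did, and within Hi 0 members and 0.334%. With each tumor's length slope, described below, as a further term, 11 members (13.6%) and 13.2% of all genes rose, so that the members' share was then no longer below that of all genes. The 11 included all 5 on Chr4 and all 3 on Chr1, and Rps15a fell (0.927% of all genes).

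On Chr1, Rpl7 (slope 0.63), Rpl31 (0.96) and Rpl37a (0.70), all of the large subunit, did not pass the test alone and had slopes of 1.12, 1.498 and 1.11 with the length slope as a term (adjusted p = 0.0139, 0.00975 and 0.0166 from edgeR). On Chr2, the small subunit gene Rps21 was at 209.6 CPM in the lowest tumor (12), 290.4 in the median and 383 in tumor 1, the tumor with the highest Chr2 dosage (0.23). Its slope was 1.88 (standard error 0.522, adjusted p = 0.0215 from edgeR). The large subunit genes Rpl7a (slope 1.10), Rpl12 (0.84) and Rpl35 (1.15) on Chr2 had adjusted p-values of 0.127, 0.255 and 0.235. Rpl12 and Rpl35 were also highest in tumor 1.

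On Chr15, Rpl8, a large subunit protein near the peptidyl transferase center, was at 470.3 CPM in tumor 6, 587 in the median and 793 in tumor 17, with a slope of 1.64 (standard error 0.490, adjusted p = 0.0321 from edgeR). This call was lost with the length slope as a term (slope 0.89, adjusted p = 0.0961). On ChrX, the slopes of Rpl39 (1.25), Rpl10 (0.79), Rps4x (0.68) and Rpl36a (1.48) did not pass the test, and Rpl39 and Rpl36a did with the length slope as a term (2.58 and 2.90). The dosage of ChrX varied little (SD 0.04). Rps4x, a small subunit protein, was at 794 CPM in tumor 7, 1025 in the median and 1516 in tumor 14.

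The members moved with the length slope, the slope in each tumor of log2 CPM, relative to the 20-tumor mean, on log2 gene length over genes that are not members. A negative value means that short mRNAs were relatively more abundant. It ran from -0.0564 in tumor 20 to 0.0679 in tumor 6. The member median of log2 CPM had an r of -0.775 with it (rho -0.788), -0.735 without the 2 farthest tumors, and -0.701 within Lo and -0.802 within Hi. Tumors 6, 7 and 9 combined high length slopes with low member levels, and tumors 1, 8, 18 and 22 the reverse. Tumor 12 was lower in members than other tumors of like length slope. Tumor 20, which had the lowest length slope, had a member median of only 8.12. Tumors 4 and 21 had length slopes near that of tumor 1 and member medians of 7.98 and 8.08.

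**Figure D3:**
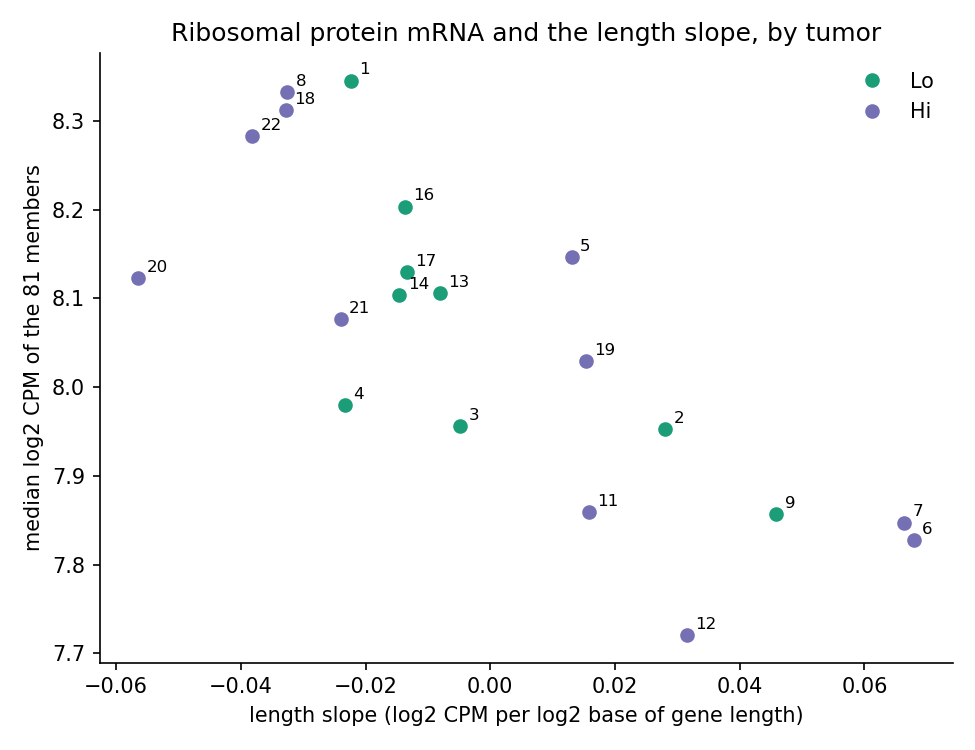
Each point is 1 tumor, numbered, with its length slope on the x axis and the median log2 CPM of the 81 members on the y axis, Lo in green and Hi in purple. The median falls as the length slope rises (r = -0.775, n = 20), and Lo and Hi tumors are interspersed.

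In edgeR fits of each gene on the standardized length slope, 64 of 81 members were lower in tumors with a higher slope and 0 higher, beside a background of 6.15% of 18883 genes lower and 4.77% higher. All 81 coefficients were negative, with a median of -0.15 log2 per SD, from -0.22 to -0.07. Among the genes with the lowest adjusted p were Rpl32 (-0.20 per SD, standard error 0.02, adjusted p = 0.000153 from edgeR) and Rps29 (-0.20, standard error 0.02, the same adjusted p). Rpl28 (-0.20), Rpl14 (-0.17), Rps28 (-0.17), Rps10 (-0.14), Rps9 (-0.15), Rps27l (-0.22) and Rpl19 (-0.16) followed. They comprised 28 of 33 small and 36 of 48 large subunit members, and this difference was not tested.

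Gene length alone is also related to this measure by construction, so shorter genes are a closer comparison than all genes. Of 1454 genes at 5 CPM or more that are not members and no longer than the members' median of 1535 bases, 31.8% were lower, with a median of -0.09, and of 10439 longer genes 5.54% were lower. The count of 64 of 81 members stands beside these shares, but the sets were not matched. Members had a median of 272 CPM and lengths up to 6262 bases, while the shorter genes needed only 5 CPM. What sets the length slope was not tested. The 17 members that did not pass included all 5 on Chr4, and Rpl5 (-0.10), Rpl22l1 (-0.11), Rpl30 (-0.14), Rpl35a (-0.12) and Rpl23a (-0.08). Within Hi 47 members and 717 of 18883 genes were lower. Within Lo, 0 members and 0 genes were called in either direction.

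Genes listed as nuclear-retained mostly moved opposite to the members. Over 9 of them with a mean of at least 5 CPM, r with the member median ran from -0.768 to 0.296 (median -0.614). Lengths of these 9 ran from 3583 to 84395 bases, beside a median of 3851 over all genes at 5 CPM or more. The part of length in this relation was not tested. With the score of the whole list, led by Malat1 (1047 to 4329 CPM), Neat1 and Nktr, 56 of 81 members were lower in tumors with a higher score and 0 higher. The background was 6.61% of genes lower and 11.2% higher (edgeR). All 81 coefficients were negative, with a median of -0.13 log2 per SD. Rpl39 (-0.20 per SD, standard error 0.03, adjusted p = 0.000170 from edgeR), Rps29 (-0.19), Rps27 (-0.18), Rpl32 (-0.18) and Rps27l (-0.20) had the lowest adjusted p-values. Of the 64 members lower with the length slope, 53 (82.8%) were among the 56, which is 94.6% of these. With the length slope as a term 1 member was lower, while genes lower fell from 1248 to 329 of 18883. Within Lo 1 member and 61 genes were lower, and within Hi 27 members and 562 genes. Without the 2 farthest tumors 63 members (median -0.18) and 3.25% of all genes were lower. For the length slope there were then 37 members (median -0.16) and 2.28% of all genes. The order of these measures by member count thus turned.

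The leukocyte and epithelial lists gave smaller coefficients of the opposite sign. All 81 coefficients were positive with both, with medians of 0.09 log2 per SD. At an unadjusted p under 0.05 there were 37 and 39 members, beside 20.7% and 20.8% of all genes. With the length slope as a term the median coefficients fell to 0.0199 (leukocyte) and 0.0118 (epithelial). Within Lo they were 0.0283 and -0.00448, and within Hi 0.163 and 0.164. The member median had an r of 0.517 with the leukocyte list (0.415 within Lo and 0.650 within Hi) and of 0.510 with the epithelial list (0.121 and 0.753). Genes within a list differed in sign. Their r with the member median ran from -0.271 to 0.621 over 8 leukocyte genes and from -0.380 to 0.706 over 8 epithelial genes. After adjustment few members passed. With the leukocyte list 3 rose, among them Rps6 (0.17 per SD, adjusted p = 0.0183) and Rps20 (0.16, adjusted p = 0.0462 from edgeR), beside a background of 1.35% higher and 0.89% lower. Rps6 and Rps20 lie on Chr4. The Chr4 dosage itself had an r of 0.467 with the leukocyte list over the 20 tumors (permutation p = 0.0372, 0.186 adjusted over 5 relations, rho 0.439 with permutation p = 0.0542, 0.239 adjusted), and 0.519 without the 2 farthest tumors. It was 0.633 within Lo and 0.332 within Hi. With the leukocyte list the members called fell to 0 without tumor 12, within Lo and within Hi, where 0 genes were called as well. They were 1 without tumor 2 or tumor 7, 7 without tumor 18 or tumor 20 and 5 without tumor 17. No share of all genes is given for single tumors left out, so these counts are not read as particular to members.

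With the epithelial list, Rps3a1 (0.14, adjusted p = 0.0465) and Rpl39 (0.15, adjusted p = 0.0486 from edgeR) rose, beside a background of 1.12% higher and 1.57% lower. Of single tumors left out, most, such as tumor 2, left 0 members, while 5 were called without tumor 3 and 7 without tumor 1. These counts have no share of all genes beside them. No member passed with the fibroblast list (background 1.74% higher and 0.0583% lower), the proliferation list (0.826% and 0.217%) or the share of the ribosomal RNA rows (0.101% and 0.0212%). In these fits 0, 3 and 2 members had an unadjusted p under 0.05, beside 10.5%, 9.23% and 10.8% of all genes.

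**Figure D4:**
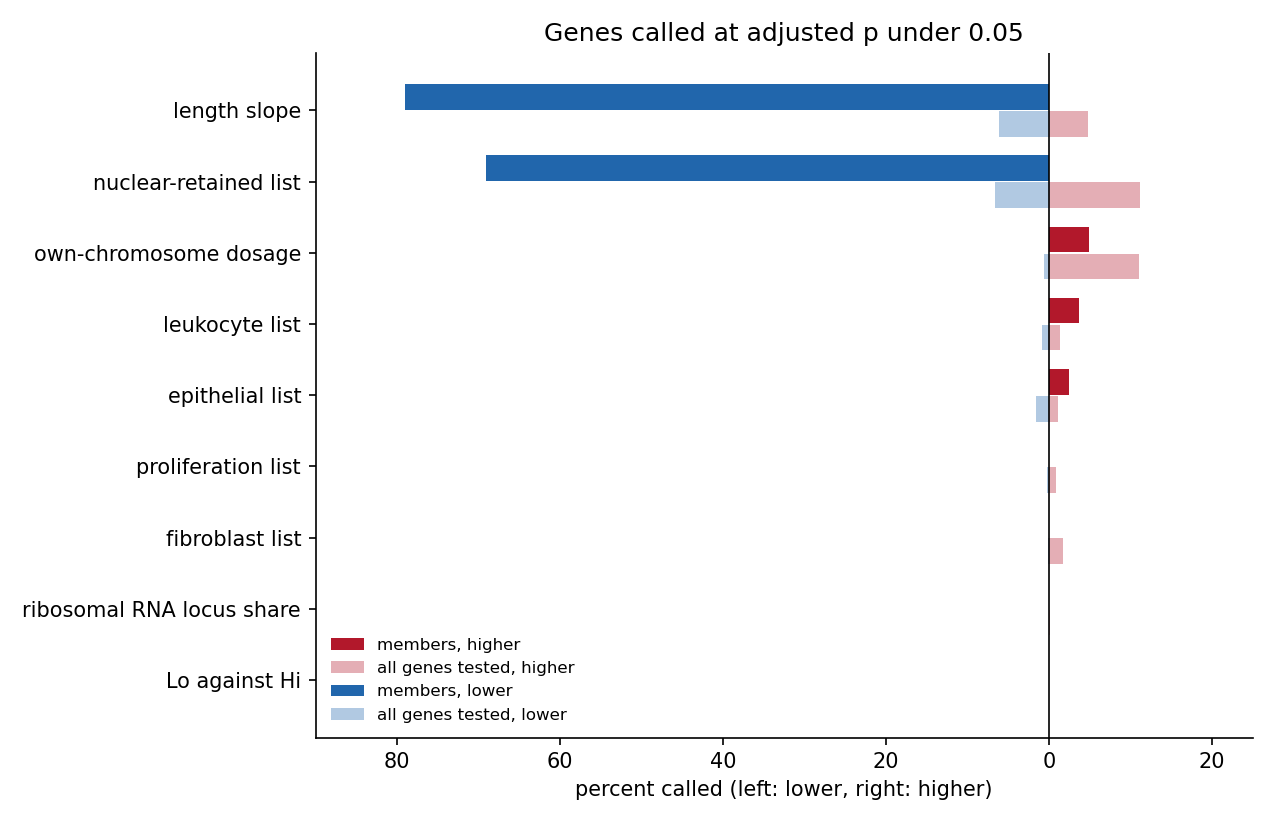
Percent of the 81 members (dark bars) and of all genes tested (light bars) called at an adjusted p under 0.05 in each comparison, lower to the left in blue and higher to the right in red. Lower members are drawn for the length slope (64) and the nuclear-retained list (56), and no bar is drawn where nothing was called.

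Other mRNAs of the translation machinery varied with the members to different degrees. Translation factors with TOP mRNAs had a median r of 0.602 with the member median over 14 genes, from 0.279 to 0.874 in Eef1b2, a nucleotide exchange factor of elongation. Eef1a1 had an r of 0.691, Eef2 of 0.371 and Tpt1 of 0.856. Of these 14, 8 were lower with the length slope and 11 with the nuclear-retained list, such as Tpt1 (-0.14 per SD, adjusted p = 0.0158 from edgeR, with the length slope). RNA polymerase I and ribosome assembly genes, 37 tested of 38, had a median r of 0.244, and 3 were lower with the length slope and 2 with the nuclear-retained list. Their most abundant genes, Ncl, Mybbp1a and Ubtf, had r of 0.505, 0.210 and 0.339. The p53 targets, of which 17 were tested and 14 had enough counts for a correlation, had a median r of 0.155, and 2 were lower with each of these measures. Cdkn1a, the cell cycle inhibitor that p53 induces, ran from 31.7 to 239.7 CPM (median 69.8) with an r of 0.162. In the Lo and Hi comparison 0 genes of these 3 lists were called.

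Paralogs of ribosomal proteins were expressed at several levels. Rpl39l (0.305 CPM), Rpl10l (0.00666 CPM) and Rpl3l (0.514 CPM) were nearly undetected beside Rpl39, Rpl10 and Rpl3 (274, 371 and 348 CPM), and 4 pairs were tested, with p-values adjusted over these 4. Rpl7 and Rpl7l1 had an r of 0.756 (permutation test, adjusted p = 0.00032, rho 0.719), and Rpl7l1 was at 0.0898 to 0.124 times the RPKM of Rpl7. Rpl36a and Rpl36al had an r of 0.709 (permutation test, adjusted p = 0.00074, rho 0.696). Rps27 and Rps27l, a p53-inducible paralog, had an r of 0.694 (permutation test, adjusted p = 0.0010, rho 0.735), with Rps27l at 0.251 to 0.431 times the RPKM of Rps27. Without the 2 tumors farthest in the first gene, r was 0.668, 0.704 and 0.573. Once the member median was subtracted, none of these passed (r of 0.141, 0.146 and 0.343), so that no relation beyond that of all members was shown.

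The fourth pair, Rpl22 and Rpl22l1, did not pass. Its r was 0.228 (permutation p = 0.336, also after adjustment, rho 0.409), and -0.139 with the member median subtracted. Rpl22l1 ran from 73.8 CPM in tumor 19 over a median of 104 to 129.7 CPM in tumor 14. In tumor 19 Rpl22 was highest and Rpl22l1 lowest of the 20 tumors, and the RPKM ratio of Rpl22l1 to Rpl22 was 0.432, below the 0.651 of the next tumor (3). The ratio was highest in tumor 1 (1.12), with a median of 0.862. Tumor 19 and tumor 1 have the highest and the lowest Chr4 dosage, and Rpl22 lies on Chr4 and Rpl22l1 on Chr3. Without the 2 tumors farthest in Rpl22, r was 0.533 (permutation test, adjusted p = 0.0233), so that the low value depends on the tumors included. Tumor 19 is among those 2 and tumor 1 is not. The ratio was looked at tumor by tumor after its values were seen, and its relation to Chr4 dosage was not tested.

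**Figure D5:**
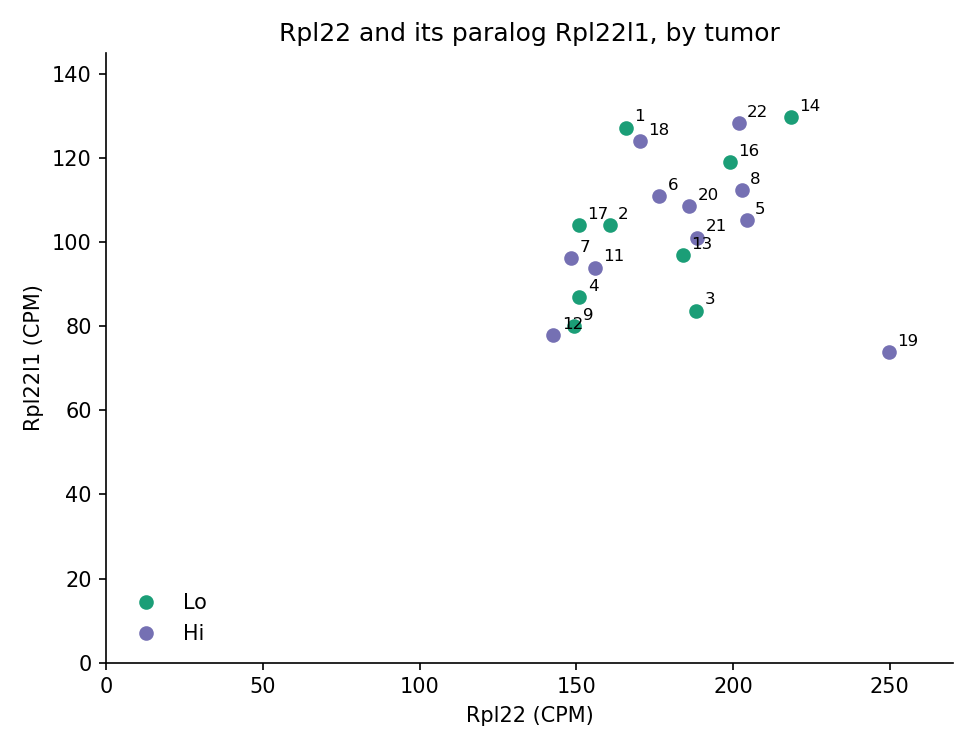
Each point is 1 tumor, numbered, with Rpl22 (CPM) on the x axis and Rpl22l1 (CPM) on the y axis, Lo in green and Hi in purple. Tumor 19 stands apart at 249.7 CPM of Rpl22 and 73.8 CPM of Rpl22l1.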

How the data were processed

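RNA of 20 breast tumors, 1 per mouse, was sequenced from TruSeq mRNA libraries in paired ends. The authors cut reads to 100 bases and mapped them with TopHat v2 in MapRseq 2.0.0 on the mm10 build. The submitters' processing notes list TopHat2 2.0.12 and featureCounts 1.4.4. The deposited values are raw read counts for every gene, unnormalized and separate for each tumor, beside a gene length. Strand setting, treatment of multi-mapping reads and annotation release are not given in the sources used here, so overlapping genes, near-identical copies and pseudogenes are uncertain. Lo and Hi come from the sample names.

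Counts were fitted over all 18883 genes that passed filterByExpr with edgeR 4.0.16 (TMM factors, the quasi-likelihood test and p-values adjusted by Benjamini-Hochberg, with a threshold of 0.05) in R 4.3.3, on Lo and Hi, on the dosage of the own chromosome, and on measures standardized over the tumors. A list was scored in each tumor by averaging the z-scores of its genes. DESeq2 1.42.0 and limma 3.58.1 served as alternatives. Levels used TMM CPM (prior count 2 for log2 values), and RPKM used the listed length. Permutation tests were two-sided with 100000 permutations, exact under 10 tumors. Python 3.11.15 and scipy 1.17.1 were used for the rest. P-values measure the spread between tumors, each from its own mouse.

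Some genes are counted in the totals and not reported by name here. Members and lists were chosen with earlier results of these data known. Named were the 5 highest and lowest members by RPKM, the 5 most and least variable, up to 10 called per test, those on Chr1, Chr2, Chr4 and ChrX, paralog pairs and up to 3 genes of highest CPM per other list. Rpl15, Eef1b2, members not called in a test or with many pseudogene counts, and those of weakest correlation were named after their values were seen. Tested on simulated counts of 18883 genes, the Lo and Hi fit recovered 197 of 200 changed genes with 16 false calls. The Chr4 dosage fit recovered 200 of 200 with 10 false calls. In the Lo and Hi fit, the changed genes had a median log2 difference of 0.99 where raised and -1.02 where lowered. The members' differences ran from -0.12 to 0.15, and recovery at that size was not tested. In the Chr4 dosage fit, changes were planted at a slope of 5 per unit of dosage, up or down. Members on Chr4 had slopes of 0.58 to 1.04, and recovery at that size was not tested. Alternatives with the length slope as a term, leaving out single tumors and some others were added after the data were seen.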

Additional observations from a re-analysis of the deposited data

Results flagged for a closer look

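In 7 members named here, tumor 1 lay far above the other Lo tumors, by the gap to the next tumor relative to the range of the 9. They were Rpl12 at 421 CPM (the other 8 Lo tumors 274 to 347), Rpl35 at 271 CPM (138 to 200.05), Rps16 at 376 CPM (238 to 295), Rpl29 at 44.4 CPM (21.5 to 31.1), Rpl23a at 175 CPM (101 to 132), Rps18 at 364 CPM (234 to 291) and Rpl10 at 469 CPM (319.6 to 381). Of these genes, Rpl12 and Rpl35 lie on Chr2, whose dosage was highest in tumor 1 (0.23). Tumor 1 also had the lowest total count and the highest member median of the 20 tumors. The Hi tumors, which number 11, were not tested in this way, and Rpl10 reached 474 CPM among them. In all, 84 sets of 9 tumors were examined, of which chance flags about 4.2, and the sets are not independent since the members vary together.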

How the results depend on the processing

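The count of 0 members between Lo and Hi was unchanged with DESeq2, RLE factors, totals without the ribosomal RNA rows and no filter, which moved the genes called to at most 1. With a replicate block on the number that the sample names carry, 0 members and 0 genes were called in 18 tumors (868 genes unadjusted, 946 without the block), with a member median of -0.01. Same-numbered tumors shared only a number (r from -0.409 to 0.326, 2 of 9 pairs over 0.1, 1 closest to its own number). The 4 members that rose with dosage became 0 without the 2 farthest tumors, 1 within Lo, 0 within Hi and 11 with the length slope as a term, and between 1 (without tumor 19) and 5 on leaving out single tumors. Members that fell with dosage became 2 without the 2 farthest tumors (Rpl5 and Rpl21 on Chr5, whose dosage has an SD of 0.0153), beside 0.138% of all genes. They became 1 with the length slope as a term (0.927% of all genes), and 0 to 1 on leaving out single tumors (1 without tumor 18 or tumor 21). Slopes of Rpl7a, Rpl12 and Rpl35 reversed within Hi (-1.91, -2.83 and -2.67, none called), and that of Rpl10 on leaving out tumor 22 (-0.0337, the lowest of a range up to 1.13). Members lower with the length slope were 37 without the 2 farthest tumors, 0 within Lo, and 49 (without tumor 7) to 67 on leaving out single tumors. For the nuclear-retained list they were 63 without the 2 farthest tumors, 1 within Lo, 27 within Hi, 1 with the length slope, and 39 (without tumor 7) to 58. The 3 members called with the leukocyte list were 0 without the 2 farthest tumors, within Lo and within Hi, and the 2 with the epithelial list 0 under these, with Lo or Hi as a term and with the length slope. Both ranged from 0 to 7 on leaving out single tumors, the latter 5 without tumor 3 and 7 without tumor 1. Of all genes, 0.111% rose with the leukocyte list and 0.0053% with the epithelial list without the 2 farthest tumors. Within Lo and within Hi, 0 genes rose with either list. With the member median subtracted, r was -0.139 for Rpl22 and Rpl22l1, 0.343 for the Rps27 pair, 0.141 for the Rpl7 pair and 0.146 for the Rpl36a pair. Within Lo, the last 3 were 0.535, 0.691 and 0.675 and did not pass, with 9 tumors. Without the 2 farthest tumors the Rpl22 pair passed (0.533), and with the length trend removed the Rps27 pair did not (0.189). The member share was 3.21% without the ribosomal RNA rows, the median r 0.615 without the length trend, and the difference between the subunits 0.22 as a median and 0.23 without Rps3a2, Rps27l, Rpl22l1 and Rpl7l1. For fits leaving out single tumors, the share of all genes called is given only for dosage without tumor 19. The other member counts from such fits are therefore not read as particular to the members. The cause of the changes listed here was not tested.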

Other observations

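A pair of rows near the members carry a name ending in rt and fall outside the name rule. Rps27rt, on Chr9, was at 116 to 218 CPM (median 159) with an r of 0.933 with the member median over the 20 tumors, and Rpl37rt, on Chr5, was at 31.4 to 55.6 CPM (median 42.9) with an r of 0.760. Reads shared with Rps27 and Rpl37 were not tested.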
